A study of Trametes versicolor with 3 samples.

Results

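The transcriptome of the white-rot fungus Trametes versicolor grown on a glucose carbon medium was compared with that of the same fungus grown on PDA (potato dextrose agar). The comparison took in every gene model with at least 1 RPKM, a read count divided by the length of the gene model and by the size of the library, in either library. That left 10487 gene models of the 11480 that had a read anywhere in the series. The lowest gene model inside this limit, Trave1_24785, had 1.00 RPKM in its higher library, and the highest outside it, Trave1_46969, had 0.999. All cultures were of strain CICC 14001 and were taken as mycelium on day 9, when the mycelial mat had reached 4 cm. The first was grown on the glucose carbon medium, the second on poplar medium and the third on PDA, with 1 RNA library from each. The labels give no genetic change and no added agent for any culture. PDA is a standard rich agar of potato infusion and dextrose, which is glucose, and the composition of the glucose carbon medium is not given in the sources used here. The growth protocol field names PDA for all of the cultures, which contradicts the source names, and the groups here are those of the source names. With 1 library per medium no difference has a replicate check and no p-value is given. The poplar library is given as a further level beside the comparison.

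White-rot fungi break down all of the polymers of wood. Cellulose is cut by cellobiohydrolases from the chain ends, by endoglucanases within the chain and by lytic polysaccharide monooxygenases (LPMOs), which oxidise it, and beta-glucosidases split the cellobiose that is released into glucose. Lignin is attacked by secreted heme peroxidases, which need hydrogen peroxide from secreted oxidases, and by laccases. Cytochrome P450 monooxygenases inside the cell then act on aromatic products, and in many fungi the genes for polysaccharide breakdown are held down by preferred sugars such as glucose. This is background from studies of such fungi and was not measured here.

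The glucose library held 2.68 M reads on gene models, the poplar library 2.80 M and the PDA library 2.85 M, with medians of 55, 58 and 58 reads per listed gene model. A single read on a 1 kb gene model was worth 0.373 RPKM in the glucose library and 0.351 RPKM in the PDA library. Ratios between the libraries are log2 ratios of RPKM plus a pseudocount of 1, glucose over PDA, and a gene is called higher or lower where that ratio reached 2-fold. On this scale 1334 of the 10487 genes were higher in the glucose library, 12.7% of those compared, and 684 were lower, 6.52%. The median log2 ratio of all genes was 0.01, and 80.8% of the genes lay within 2-fold. Single genes are also given as plain RPKM folds with an exact 95% interval of the count ratio, which covers counting error and not the difference between cultures. Differences of at least 10-fold with the pseudocount numbered 86 in the higher direction and 25 in the lower. As every value is a share of its library's reads, fewer hyphae expressing a gene and less of its RNA per hypha cannot be told apart.

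**Figure D1:**
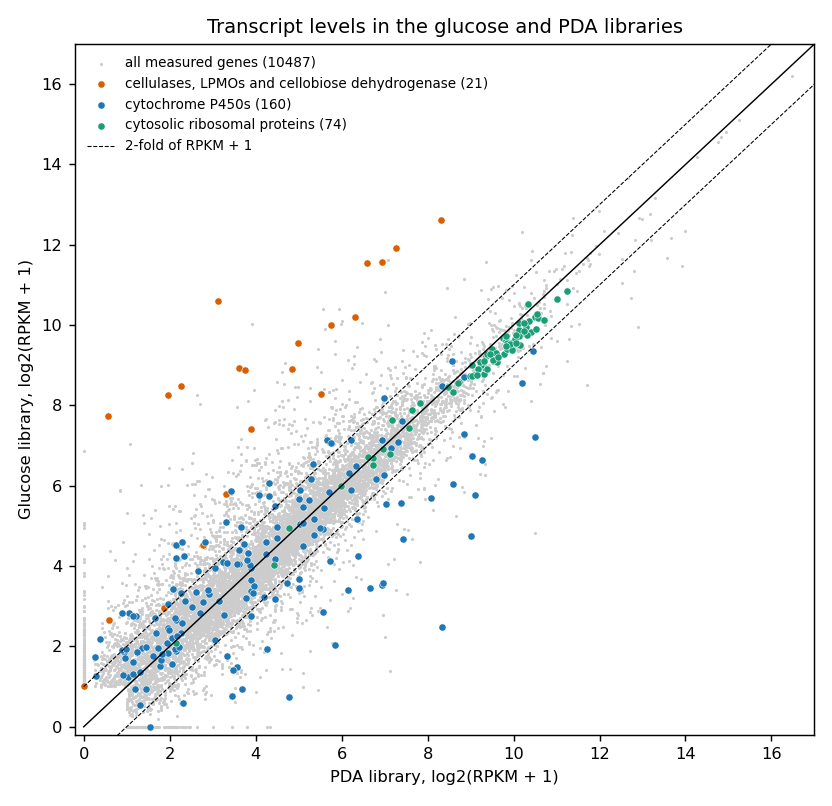
Each point is a gene, with log2(RPKM + 1) in the glucose library on the vertical axis and in the PDA library on the horizontal axis, for all 10487 genes in grey and 3 gene lists in colour. The solid line marks equal levels and the dashed lines 2-fold. The 21 genes for cellulases, LPMOs and cellobiose dehydrogenase all lie above the upper dashed line, the ribosomal protein genes lie between the dashed lines, and cytochrome P450 genes reach far below the lower one.

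The genes of cellulose breakdown were higher on glucose than on PDA as a group. All 14 genes on the cellulase list were called higher, with a median log2 ratio of 4.61, against 12.7% of all genes called higher and a median of 0.01. Their summed level was 17529 RPKM on glucose and 7734 on poplar, against 723 on PDA. They took 2.18% (2.16 to 2.2%) of the glucose library's reads and 0.0917% (0.0882 to 0.0952%) of the PDA library's, with the Wilson 95% interval of each share. Of the 14, 13 were called higher with a counting interval that also left out a ratio of 1, and 9.74% of all genes met both conditions.

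The 4 genes for cellobiohydrolase I, which works from the reducing end of the cellulose chain, spanned a wide range of levels. Trave1_112433 was the most abundant, with 6288 RPKM on glucose and 2317 on poplar, against 318 on PDA, a fold of 19.8 (18.7 to 20.9) with its 95% interval in brackets. Trave1_111060 had the largest log2 ratio of all described genes, with 5699 reads on glucose and 2331 on poplar, against 30 on PDA. That is 1552 RPKM on glucose against 7.68 RPKM on PDA, or 202-fold (142 to 300.0). The glucose library was thus the highest of the 3 for both of these genes, and the PDA library the lowest. Trave1_126211 had 484 RPKM on glucose and 171 on poplar, against 11.3 on PDA, or 43-fold (31.9 to 59.4). Trave1_124636 followed another order, with 313 RPKM on glucose and 893 on poplar, against 45.2 on PDA, so that its poplar level was above its glucose level while its glucose level was 6.93-fold (5.91 to 8.17) above PDA. The gene for cellobiohydrolase II, which works from the other chain end, Trave1_64096, had 3868 RPKM on glucose and 1646 on poplar, against 153 on PDA, or 25.4-fold (23.4 to 27.6).

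Endoglucanases and other genes made up the rest of the list. The description cellulose-growth-specific protein names no enzyme activity. The genes so described carry the KEGG name endoglucanase, but so does the glycoside hydrolase family 61 gene Trave1_51274, so that name does not tell them from LPMOs. The cellulose-growth-specific proteins Trave1_143649 and Trave1_43328 had 3051 RPKM on glucose and 1114 on poplar, against 121 on PDA, and 305 RPKM on glucose and 26.9 on poplar, against 2.89 on PDA. Their folds were 25.2 (22.6 to 28.2) and 106 (48.2 to 289), the wide second interval coming from 6 reads on PDA. The endocellulase Trave1_136387 had 357 RPKM on glucose against 3.82 on PDA, or 93.5-fold (47.2 to 218). The endoglucanase V-like gene Trave1_168288 had 471 RPKM on glucose against 12.5 on PDA, or 37.5-fold (24.6 to 60.2), and the endoglucanase Trave1_150878 had 756 RPKM on glucose against 30.8 on PDA, or 24.5-fold (20.1 to 30.2). These 5 genes were all above 300 RPKM on glucose and at most 121 RPKM on PDA. The smaller differences belonged to genes of low level. Trave1_39490 had 54.4 RPKM on glucose against 8.99 on PDA, Trave1_152118 had 21.9 RPKM on glucose against 5.85 on PDA, and Trave1_34218 had 19 reads on glucose against 8 on PDA with 168 on poplar. The last member, the endocellulase Trave1_54041, had 2 reads on glucose and 0 on PDA, too few for a fold. It passed the limit on low values only through the library in which it was called higher.

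The oxidative side of cellulose breakdown showed differences of like size. All 7 genes on the list, 6 for LPMOs described as glycoside hydrolase family 61 and 1 for cellobiose dehydrogenase, which can supply LPMOs with electrons, were called higher. Their median log2 ratio was 4.07 and their summed level 6065 RPKM on glucose and 2794 on poplar, against 269.5 on PDA. The most abundant LPMO gene, Trave1_162999, had 2983 RPKM on glucose and 1326 on poplar, against 95 on PDA, or 31.4-fold (27.1 to 36.6). Trave1_69299 had 421 reads on glucose and 266 on poplar, against 1 on PDA, so that its ratio of 448 has an interval of 80 to 17743. The other LPMO genes ranged from 1185 RPKM on glucose against 79 on PDA for Trave1_34454, whose poplar level was 163 RPKM, through 1025 RPKM on glucose against 53 on PDA for Trave1_51274 and 483 RPKM on glucose against 27.8 on PDA for Trave1_45462, to 10 reads on glucose against 1 on PDA for Trave1_40525. Cellobiose dehydrogenase, Trave1_73866, had 169.8 RPKM on glucose and 66.7 on poplar, against 13.8 on PDA, or 12.3-fold (9.9 to 15.4). In every one of these 7 genes the poplar level lay between the glucose and the PDA level. Trave1_69299 and Trave1_40525 passed the limit on low values only through the glucose library, in which they were called higher.

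Beta-glucosidase genes, which encode the last step to glucose, were less uniform. Of 7, 4 were called higher and 1 lower, 57.1% and 14.3% against 12.7% and 6.52% of all genes. Their median log2 ratio was 1.41. Trave1_68827 had 53.9 RPKM on glucose against 4.88 on PDA, or 11.1-fold (7.76 to 16.2). Beta-glucosidase 1A, Trave1_171462, had 94.6 RPKM on glucose against 15.9 on PDA and beta-glucosidase 1B, Trave1_136522, 92.6 RPKM on glucose against 17.6 on PDA, with folds of 5.93 (4.52 to 7.88) and 5.27 (4.13 to 6.79). All 3 were lower in the PDA library than in both other libraries. Trave1_147088 was 2.74-fold higher, and Trave1_171208 and Trave1_50030 were above PDA by less than 2-fold. The most abundant member on poplar and PDA went the other way, since Trave1_55904 had 87.2 RPKM on glucose and 352 on poplar, against 241 on PDA, which is 2.76-fold (2.49 to 3.06) lower on glucose. The summed level of these genes differed by less than 2-fold, with 421 RPKM on glucose and 614 on poplar, against 319.5 on PDA. That depended on which genes were listed. With genes found by the KEGG name that the files give added, there were 14, of which 7 were higher and 1 lower, and the log2 ratio of the sums was 3.14. The added genes include cellobiohydrolase II Trave1_64096, given above among the cellulases, as beta-glucosidase is 1 of its KEGG names. It held most of the 4724 RPKM summed on glucose, so the larger ratio is largely that of a cellulase.

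**Figure D2:**
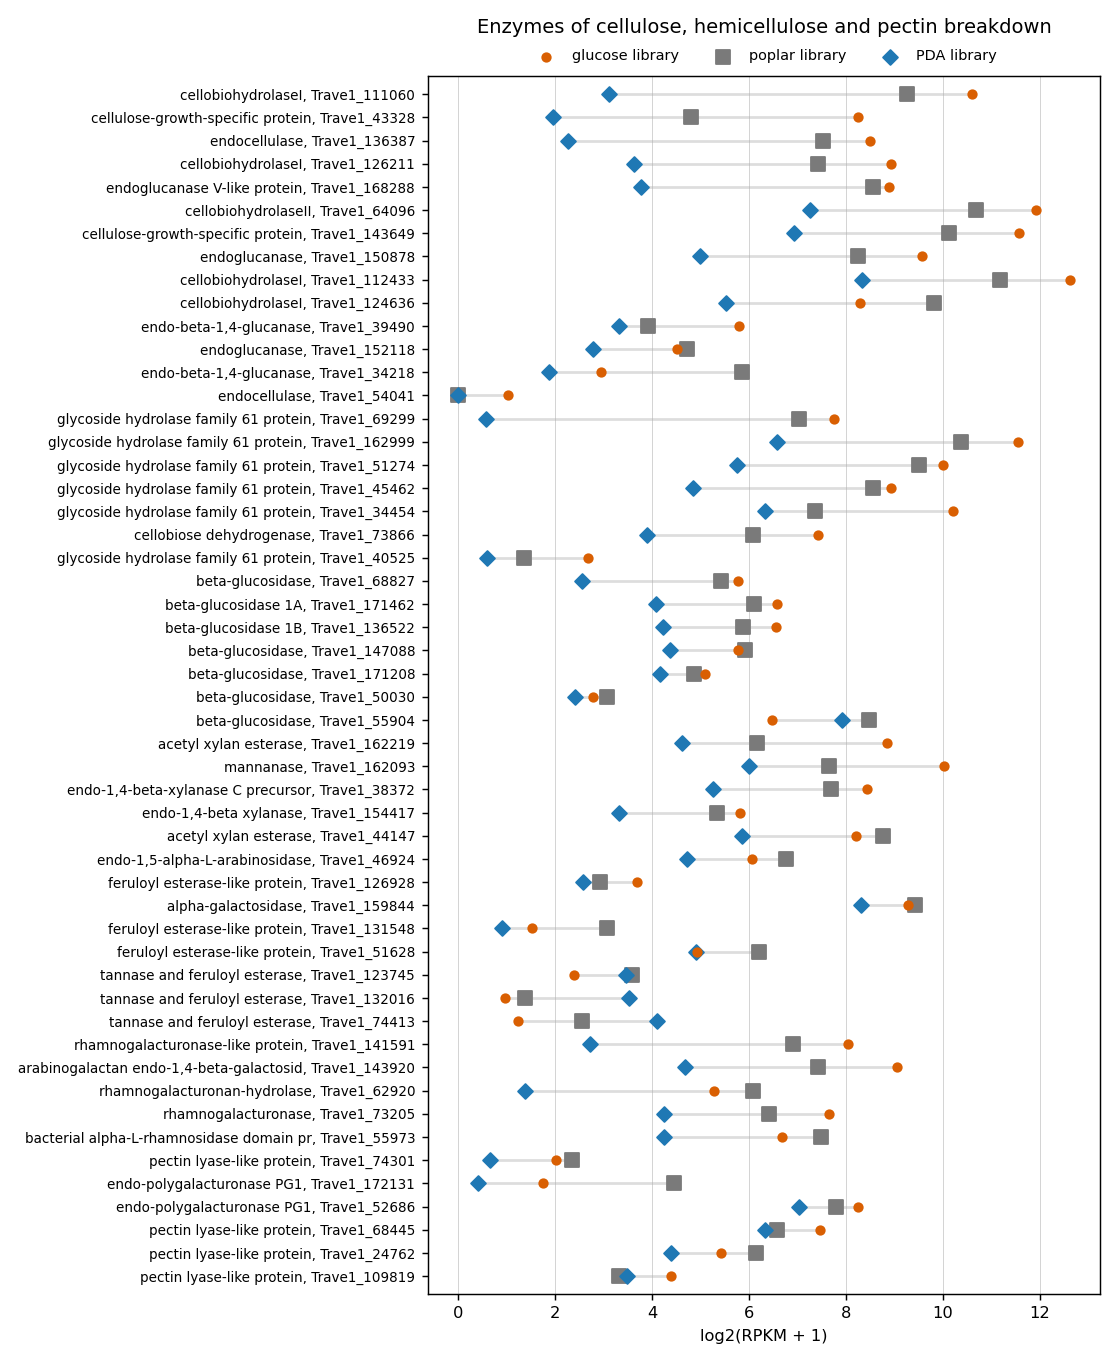
Level of each measured gene for cellulose, hemicellulose and pectin breakdown as log2(RPKM + 1), with the glucose library as circles, the poplar library as squares and the PDA library as diamonds, and grey bars joining the 3 values. From the top the genes are cellulases, LPMOs with cellobiose dehydrogenase, beta-glucosidases, hemicellulases and pectinases, each ordered by log2 ratio. In 42 of the 52 genes the glucose point lies at least 1 unit to the right of the PDA point, and in 4 it lies at least 1 unit to the left.

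Hemicellulases, which cut xylan, mannan and their side groups, were split by enzyme. Of 13 measured members of 14, 7 were called higher and 3 lower, 53.8% and 23.1% against 12.7% and 6.52% of all genes. The median log2 ratio was 1.12. Mannanase Trave1_162093 had 1043 RPKM on glucose and 199.8 on poplar, against 62.5 on PDA, or 16.7-fold (14.6 to 19.1). The acetyl xylan esterase Trave1_162219 had 457 RPKM on glucose and 70.6 on poplar, against 23.6 on PDA, or 19.3-fold (15.3 to 24.7), and the xylanase C gene Trave1_38372 had 345 RPKM on glucose and 205 on poplar, against 37.2 on PDA, or 9.27-fold (7.72 to 11.2). For these 3 genes the glucose level was the highest and the PDA level the lowest. A further gene, Trave1_145163, carries no protein description but a KEGG name of endo-1,4-beta-xylanase, and it had 1039 RPKM on glucose and 173 on poplar, against 14 on PDA, or 74-fold (55.4 to 101), which placed it among the 10 largest log2 ratios of all genes. Among the other members, the second acetyl xylan esterase Trave1_44147 was 5.17-fold higher, the xylanase Trave1_154417 6.19-fold, the arabinosidase Trave1_46924 2.6-fold and the feruloyl esterase-like Trave1_126928 2.41-fold. Alpha-galactosidase Trave1_159844, at 620.0 RPKM on glucose against 317 on PDA, fell just short of the call, and the feruloyl esterase-like genes Trave1_131548 and Trave1_51628 differed by less than 2-fold. The 3 lower members were all the genes described as tannase and feruloyl esterase, enzymes that cut esters of phenolic acids. Trave1_74413 had 5 reads on glucose against 64 on PDA, Trave1_132016 4 reads on glucose against 47 on PDA, and Trave1_123745 18 reads on glucose against 46 on PDA, each of low level in every library.

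Pectinases were higher on glucose in 10 of 11 cases, 90.9% against 12.7% of all genes. None was lower by 2-fold, and the median log2 ratio was 1.36. With KEGG names 10 of 17 were higher and 0 lower, so none of the added genes was called. The log2 ratio of the sums was then 1.51, against 2.45 by description. The rhamnogalacturonase-like gene Trave1_141591, for the branched part of pectin, had 262 RPKM on glucose and 119 on poplar, against 5.57 on PDA, or 47.1-fold (30.7 to 76.5). The arabinogalactan endo-1,4-beta-galactosidase gene Trave1_143920 had 528 RPKM on glucose and 171 on poplar, against 24.5 on PDA, or 21.5-fold (17 to 27.6). The rhamnogalacturonan hydrolase Trave1_62920 had 37.7 RPKM on glucose and 66.8 on poplar, against 1.59 on PDA, with its highest level on poplar and a fold of 23.8 (10.6 to 65.9) over PDA. The PDA library was the lowest of the 3 for each of these genes. Rhamnogalacturonase Trave1_73205 was 11.1-fold higher and the rhamnosidase-domain gene Trave1_55973 5.71-fold higher. Endo-polygalacturonase PG1 Trave1_52686, which cuts the unbranched backbone, had 302 RPKM on glucose against 129 on PDA, or 2.35-fold (2.09 to 2.65). The pectin lyase-like genes Trave1_68445 and Trave1_24762 were 2.2-fold and 2.1-fold higher, and Trave1_109819, at 1.99-fold, missed the call with the pseudocount. The second PG1 gene Trave1_172131 and the pectin lyase-like Trave1_74301 rested on 7 reads on glucose against 1 on PDA and 10 reads on glucose against 2 on PDA. Trave1_172131 passed the limit on low values only through the glucose library, in which it was called higher.

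Over all genes for cellulose, hemicellulose and pectin together, 52 of 53 were measured and 42 were called higher, 80.8% against 12.7% of all genes. Their summed level was 28617 RPKM on glucose and 14027 on poplar, against 2222 on PDA, a ratio of 12.9 between glucose and PDA. They held 3.3% of the reads on glucose (3.28 to 3.32%) and 0.296% on PDA (0.29 to 0.302%).

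Starch-degrading genes held a single large difference. Glucoamylase Trave1_37627, which releases glucose from starch chain ends, had 304 RPKM on glucose and 35 on poplar, against 5.23 on PDA, or 58.1-fold (39.5 to 89.3). The other glucoamylase genes, Trave1_55233 and Trave1_28850, had 13.2 RPKM on glucose against 25.1 on PDA and 8.15 RPKM on glucose against 16.7 on PDA, both below their PDA levels by more than their counting intervals but within 2-fold with the pseudocount. The most abundant member was the alpha-amylase Trave1_28425, which cuts within the starch chain, with 547 RPKM on glucose against 348 on PDA, or 1.57-fold (1.47 to 1.67). The alpha-glucosidases Trave1_146373 and Trave1_58303 were 2.56-fold and 2.15-fold higher, Trave1_173561 had 36.9 RPKM on glucose against 36.4 on PDA and the second alpha-amylase Trave1_29861 had 13.7 RPKM on glucose against 20.6 on PDA. In all 3 of 8 members were called higher, 37.5% against 12.7% of all genes, and 0 lower. The median log2 ratio was 0.33.

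Among the 11 lignin peroxidase genes, 6 were called higher, 54.5% against 12.7% of all genes, and 1 lower, 9.09% against 6.52%, and the median log2 ratio was 1.27. The most abundant on glucose were isozyme LP7 Trave1_43559, with 562 RPKM on glucose and 333 on poplar, against 70.3 on PDA, or 7.99-fold (6.94 to 9.23), and ligninase C Trave1_115214, with 553 RPKM on glucose and 1965 on poplar, against 111 on PDA, or 4.98-fold (4.44 to 5.6). LP7 was thus highest on glucose, while ligninase C was highest on poplar. Trave1_134188 had 84.9 RPKM on glucose and 190.5 on poplar, against 3.84 on PDA, or 22.1-fold (12.4 to 43.3). Trave1_133596 had 18.8 RPKM on glucose against 1.28 on PDA, Trave1_134520 97 RPKM on glucose against 12.6 on PDA and Trave1_134001 114 RPKM on glucose against 46.4 on PDA, all called higher. The genes Trave1_134927, Trave1_134496, Trave1_52603 and Trave1_43846 had 31.7 RPKM on glucose against 30.1 on PDA, 11.3 RPKM on glucose against 11 on PDA, 12.3 RPKM on glucose against 12.5 on PDA and 3.72 RPKM on glucose against 5.4 on PDA, and the counting interval of each took in a ratio of 1. The same 4 genes had 229, 299, 193 and 82.2 RPKM on poplar, above both other libraries. The lower gene, Trave1_43848, had 41.3 RPKM on glucose and 219 on poplar, against 277 on PDA, which is 6.71-fold (5.54 to 8.17) lower on glucose.

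Manganese and versatile peroxidases, which act on lignin largely through oxidised manganese ions, were called higher in 5 of 11 measured cases of 12. That was 45.5% against 12.7% of all genes, and none was lower. Their median log2 ratio was 0.91. The manganese-repressed peroxidase Trave1_26509 was the most abundant on glucose and on PDA, with 367 RPKM on glucose and 38.2 on poplar, against 146 on PDA, or 2.52-fold (2.26 to 2.82). The isozymes Trave1_45167 and MP2 Trave1_51645 had 98.3 RPKM on glucose and 13.5 on poplar, against 10 on PDA, and 122 RPKM on glucose and 27.3 on poplar, against 23 on PDA, with folds of 9.82 (6.77 to 14.7) and 5.32 (4.12 to 6.95). For all 3 the glucose level was the highest of the series. Versatile peroxidase VPS1 Trave1_74865 and manganese peroxidase Trave1_29165 were 2.84-fold and 2.66-fold higher, on 32 and 35 reads in the glucose library. Trave1_51721, with 36 reads on glucose against 19 on PDA, was above its PDA level by less than 2-fold with the pseudocount. The remaining 5 genes, Trave1_131350, Trave1_74449, Trave1_51727, Trave1_130766 and Trave1_51725, were below their PDA levels by less than 2-fold on that scale, the most abundant with 66.4 RPKM on glucose against 104 on PDA. With the 50 most counted gene models left out of the library totals, which put the median log2 ratio of all genes at -0.04, 1 of these was called lower.

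Laccases, copper oxidases of phenols, were of low level in both libraries. Laccase I Trave1_68293 had 37.1 RPKM on glucose and 7.56 on poplar, against 4.95 on PDA, or 7.5-fold (4.78 to 12.3). Laccase 5 Trave1_146502 had 25.1 RPKM on glucose against 11.8 on PDA, or 2.13-fold (1.52 to 3.02). The most abundant, laccase B Trave1_138531, had 70.7 RPKM on glucose and 77.5 on poplar, against 57 on PDA, and its interval of 1.05 to 1.47 left out 1 while its fold was 1.24. The laccase genes Trave1_118453 and Trave1_115565 had 7.78 RPKM on glucose against 3.76 on PDA and 14.1 RPKM on glucose against 7.85 on PDA. All 5 were thus above their PDA level, 2 of them by 2-fold with the pseudocount, 40% against 12.7% of all genes.

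Among the genes for oxidases that make hydrogen peroxide, the most abundant gene on PDA was lower on glucose while more of the others were higher than lower. Pyranose 2-oxidase Trave1_174991, which oxidises glucose and other sugars, had 4974 reads on glucose and 12139 on poplar, against 40772 on PDA. At 992 RPKM on glucose and 2316 on poplar, against 7639 on PDA, it was 7.7-fold (7.48 to 7.93) lower on glucose, with reads over about the same share of the gene model, 80.6% on glucose and 81.2% on PDA. This single gene put the list's summed level lower on glucose, at 3801 RPKM and 7469.8 on poplar, against 8859 on PDA, while the list's median log2 ratio was 0.39. Of 25 measured members, 9 were called higher and 2 lower, 36% and 8% against 12.7% and 6.52% of all genes. The glyoxal oxidases Trave1_118536 and Trave1_116399, copper enzymes that oxidise small aldehydes, had 158 RPKM on glucose against 27.1 on PDA and 109.6 RPKM on glucose against 19 on PDA, with folds of 5.82 (4.82 to 7.07) and 5.77 (4.6 to 7.31). The abundant alcohol oxidase Trave1_144880, chosen after its values were seen, had 2002 RPKM on glucose and 4233 on poplar, against 795 on PDA, or 2.52-fold (2.43 to 2.61). The other lower gene was the GMC oxidoreductase Trave1_120102, of the family named after glucose, methanol and choline oxidases, with 11.4 RPKM on glucose against 25.8 on PDA.

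**Figure D3:**
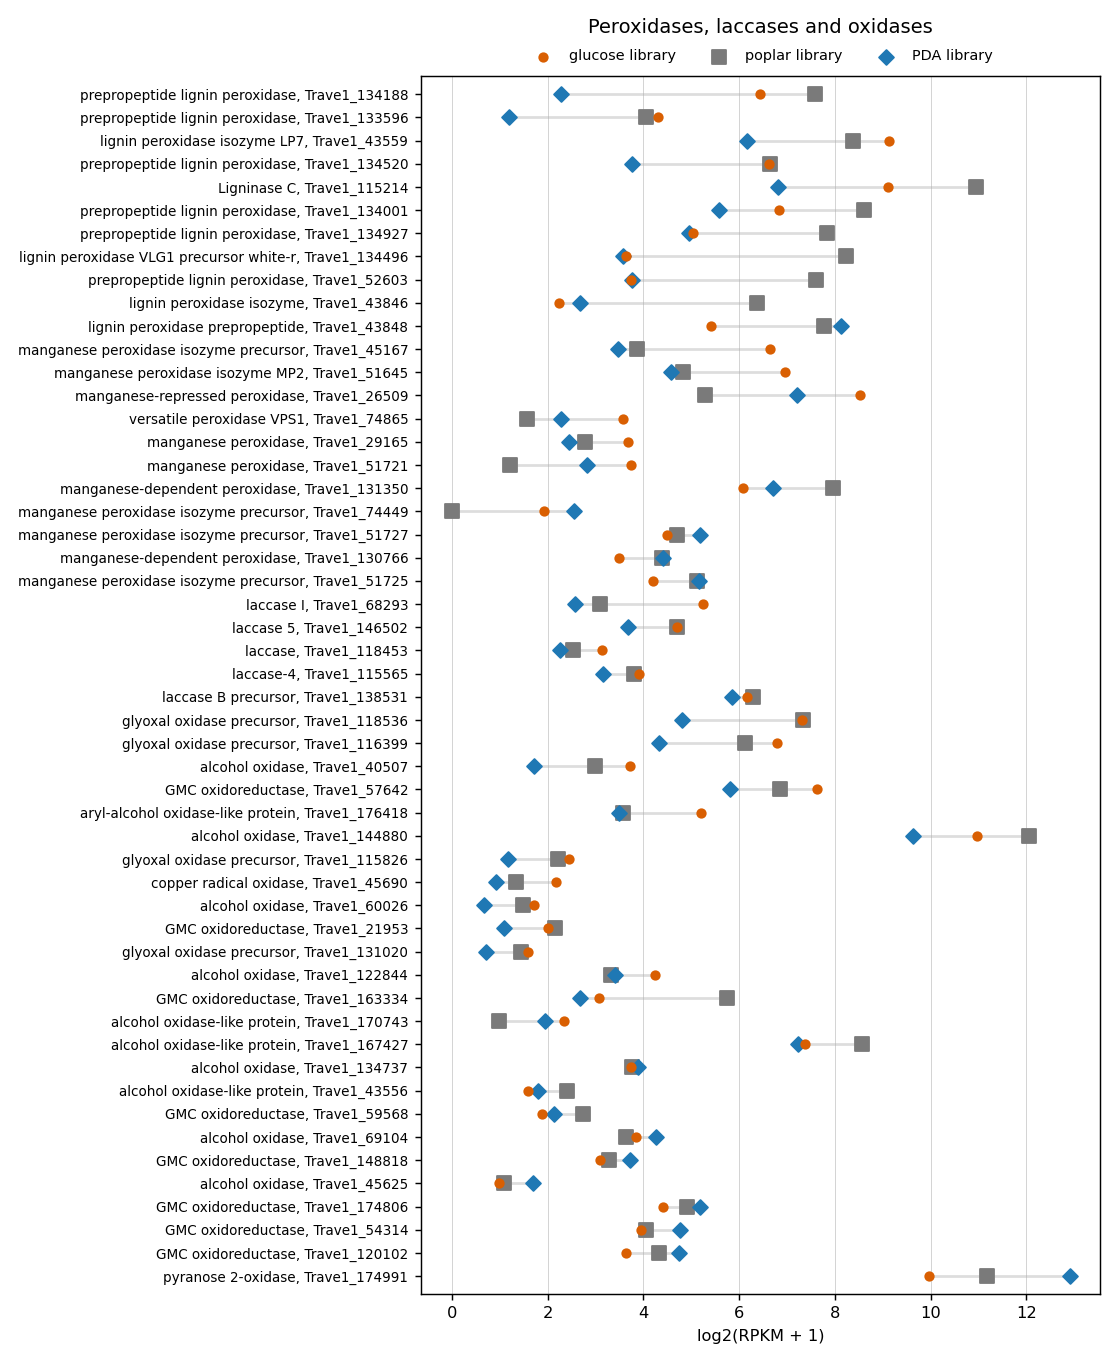
Level of each measured gene for lignin peroxidases, manganese and versatile peroxidases, laccases and hydrogen peroxide-producing oxidases, from the top, as log2(RPKM + 1) in the glucose library (circles), the poplar library (squares) and the PDA library (diamonds). Genes within a list are ordered by log2 ratio and grey bars join the 3 values. Pyranose 2-oxidase, at the foot, has the highest PDA value of all of these genes, with its glucose value 2.94 units to the left.

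A gene described only as peroxidase and given the KEGG name cytochrome c peroxidase, Trave1_43747, had 11 reads on glucose and 608 on poplar, against 402 on PDA. Its fold of 34.3 (19 to 69.3) lower on glucose was among the 10 largest in that direction. The manganese peroxidase MP2 Trave1_51645 carries the same KEGG name, so that name does not tell Trave1_43747 from the manganese peroxidases. Trave1_43747 was not counted on their list.

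Cytochrome P450 genes were the list with the most lower calls. Of 160 measured members of 170, 37 were lower, which is 23.1% against 6.52% of all genes, and 28 were higher, which is 17.5% against 12.7%. At 4-fold there were 22 lower and 4 higher. The summed level was 6742 RPKM on glucose and 8382 on poplar, against 12794 on PDA, and their share of reads was 1.04% (1.03 to 1.05%) on glucose against 1.99% (1.97 to 2.01%) on PDA. The median log2 ratio of 0.13 had the opposite sign to the ratio of the sums, -0.92. Lower calls outnumbered higher ones most among the abundant genes, since of the 22 with a mean of at least 100 RPKM over both libraries 12 were lower and 1 higher, with a median of -1.33.

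The largest difference was that of Trave1_46544, with 20 reads on glucose and 427 on poplar, against 1500 on PDA, or 70.5-fold (45.5 to 116) lower on glucose. Trave1_16599 had 25.9 RPKM on glucose and 121 on poplar, against 511 on PDA, or 19.8-fold (16.2 to 24.3) lower. Trave1_140536, the most abundant P450 gene on PDA, had 148 RPKM on glucose and 412 on poplar, against 1451 on PDA, or 9.82-fold (9.03 to 10.7) lower. In each of these the poplar level lay between the others. Trave1_68270 had 53.9 RPKM on glucose against 549.7 on PDA, Trave1_171201 10.9 RPKM on glucose against 123 on PDA and Trave1_46140 3.11 RPKM on glucose against 56.3 on PDA, which are folds of 10.2, 11.3 and 18.1 lower. Trave1_128244 had 10.6 RPKM on glucose and 121 on poplar, against 121 on PDA, with poplar at the PDA level, and Trave1_131449 had 3 reads on glucose against 125 on PDA. All but 1 of the higher P450 genes averaged under 100 RPKM over both libraries, and the largest ratios among them were those of Trave1_131299 with 57.7 RPKM on glucose against 9.67 on PDA, Trave1_124637 with 21.8 RPKM on glucose against 3.46 on PDA and Trave1_53727 with 23.2 RPKM on glucose against 3.9 on PDA.

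**Figure D4:**
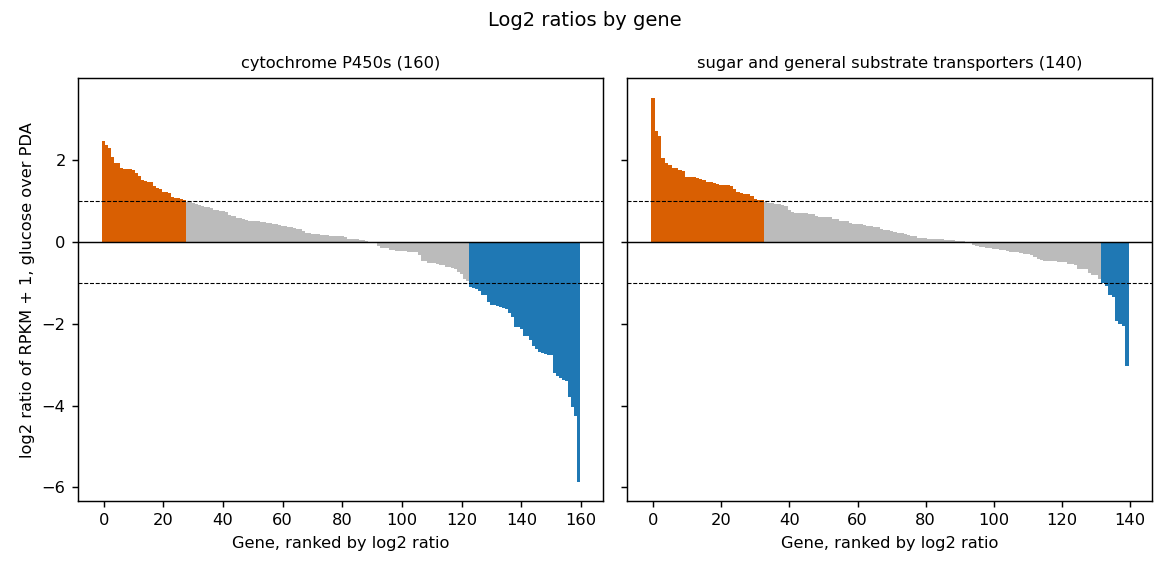
Log2 ratio of RPKM + 1, glucose over PDA, for each measured gene of 2 lists ranked from high to low, 160 cytochrome P450 genes in the left panel and 140 transporter genes in the right. Orange bars are called higher and blue bars lower at the dashed 2-fold lines. The P450 genes have 28 orange and 37 blue bars with the longer bars at the lower end, and the transporters have 33 orange and 8 blue.

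Of 15 genes for glutathione transferases and quinone reductases, enzymes of detoxification, 5 were higher, 33.3% against 12.7% of all genes, and 0 lower, and the median log2 ratio was 0.13. With KEGG names 28 of 82 were higher and 8 lower. The glutathione S-transferase genes Trave1_74212 and Trave1_118196 had 40.1 RPKM on glucose against 3.65 on PDA and 77.2 RPKM on glucose against 27.5 on PDA, and Trave1_47091 had 36 reads on glucose against 1 on PDA. The most abundant, Trave1_63077, had 1370.2 RPKM on glucose against 1557 on PDA. Of 29 antioxidant genes 8 were higher, 27.6%, and 2 lower, 6.9%, and the median was 0.13. Catalase Trave1_152668, which breaks down hydrogen peroxide and was chosen after its values were seen, had 3679.6 RPKM on glucose and 3709.7 on poplar, against 1385 on PDA, or 2.66-fold (2.58 to 2.74), while manganese superoxide dismutase Trave1_175978 had 3499.6 RPKM on glucose and 4196 on poplar, against 4086 on PDA. Thioredoxin-like proteins went both ways, with 95.2 RPKM on glucose against 17.7 on PDA for Trave1_72028 and 489.6 RPKM on glucose against 1235 on PDA for Trave1_54628. The KEGG name of Trave1_54628 is glutathione S-transferase, so its place among the antioxidant genes rests on the description alone.

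Genes of small organic acids were led by formate dehydrogenase, which oxidises formate to carbon dioxide. Trave1_56661 had 1943 RPKM on glucose and 1284 on poplar, against 348 on PDA, or 5.58-fold (5.25 to 5.94), and made up most, in the glucose library, of the list's summed level of 2384 RPKM on glucose and 1690.4 on poplar, against 809 on PDA. The second gene, Trave1_173372, went the other way with 10.3 RPKM on glucose against 29.5 on PDA, or 2.88-fold (1.92 to 4.4) lower. Oxalate decarboxylases, which turn oxalate into formate, included the higher genes Trave1_128779, with 121 RPKM on glucose and 37.4 on poplar, against 23.3 on PDA, and Trave1_60985, with 51.6 RPKM on glucose and 7.05 on poplar, against 14.1 on PDA. Isocitrate lyase Trave1_166513, the entry to the glyoxylate cycle, had 52 RPKM on glucose and 179.6 on poplar, against 196 on PDA, or 3.77-fold (3.26 to 4.39) lower on glucose. Malate synthase Trave1_56596, the next step of that cycle, chosen after its values were seen, had 18.7 RPKM on glucose against 19.7 on PDA, with an interval of 0.774 to 1.44. In all 3 of 11 members were higher and 2 lower, 27.3% and 18.2% against 12.7% and 6.52% of all genes.

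The lists of central carbon metabolism held few calls, beside 80.8% of all genes that lay within 2-fold. None of 17 genes of glycolysis and the pentose phosphate pathway reached 2-fold, and their median log2 ratio was -0.41. Glyceraldehyde-3-phosphate dehydrogenase Trave1_30332 had 1110.3 RPKM on glucose and 1143 on poplar, against 1178 on PDA. Hexokinase Trave1_157025, the first step for glucose, chosen after its values were seen, had 103 RPKM on glucose against 158 on PDA, or 1.54-fold (1.36 to 1.74) lower on glucose. None of 4 genes of gluconeogenesis and acetate activation reached 2-fold either, a list too short to compare with that share. Phosphoenolpyruvate carboxykinase Trave1_69551, the entry to gluconeogenesis, had 246 RPKM on glucose against 184 on PDA, or 1.34-fold (1.22 to 1.46). Of 21 genes of the tricarboxylic acid cycle 0 were higher and 1 lower, a 2-oxoglutarate dehydrogenase E1 gene, Trave1_58362, with 12 RPKM on glucose against 26.2 on PDA. The 29 genes of the respiratory chain and ATP synthase had a median of -0.24, and none reached 2-fold.

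Fatty acid genes were near the background, with 5 of 35 higher and 2 lower, 14.3% and 5.71% against 12.7% and 6.52% of all genes. The delta-12 desaturases, which add a double bond to fatty acids, went opposite ways, with 90.6 RPKM on glucose and 25.6 on poplar, against 32.1 on PDA for Trave1_155123 and 212 RPKM on glucose and 224 on poplar, against 600.4 on PDA for Trave1_28733. Of 36 genes for sterols and terpenoids 1 was higher and 6 were lower, against 12.7% and 6.52% of all genes, and the median log2 ratio was -0.29. With KEGG names 9 of 82 were higher and 10 lower, and the median was -0.05. Early steps of the pathway were among the lower genes, with 102 RPKM on glucose and 115 on poplar, against 348 on PDA for farnesyl-diphosphate synthase Trave1_134849, or 3.4-fold (2.99 to 3.88) lower, and 68.6 RPKM on glucose and 56.5 on poplar, against 171 on PDA for hydroxymethylglutaryl-CoA synthase Trave1_149073, or 2.49-fold (2.16 to 2.88) lower. The most abundant, the sterol C-methyltransferase gene Trave1_74343 of the ergosterol pathway, had 1294 RPKM on glucose against 1552 on PDA.

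Sugar and general substrate transporters were more often higher than lower. Of 140 genes 33 were higher, 23.6% against 12.7% of all genes, and 8 lower, 5.71% against 6.52%. The summed level was 8079 RPKM on glucose and 6798 on poplar, against 5306 on PDA. The most abundant transporter, Trave1_168780, had 2022 RPKM on glucose and 1050.2 on poplar, against 989.9 on PDA, or 2.04-fold (1.97 to 2.12), and so made up a good part of that sum. The largest ratio was that of Trave1_35601, with 64.5 RPKM on glucose and 8.37 on poplar, against 4.7 on PDA, or 13.7-fold (8.71 to 22.9). Trave1_21384 had 77.7 RPKM on glucose against 11.1 on PDA and Trave1_41623 39.2 RPKM on glucose against 5.73 on PDA. Among the lower genes Trave1_175438 had 15.6 RPKM on glucose and 61 on poplar, against 134 on PDA, or 8.58-fold (6.66 to 11.2) lower on glucose. A gene described as a monosaccharide transporter, Trave1_149493, had 71.5 RPKM on glucose and 95.2 on poplar, against 302 on PDA, or 4.23-fold (3.73 to 4.8) lower. Another described as a hexose transporter, Trave1_69854, chosen after its values were seen, had 39.7 RPKM on glucose and 21.6 on poplar, against 8.89 on PDA, or 4.47-fold (3.16 to 6.44) higher. By KEGG name Trave1_35601 is a multidrug resistance protein and Trave1_21384 a myo-inositol transporter. Trave1_41623 has several KEGG names, among them pantothenate transporter and allantoate permease. Trave1_168780, Trave1_175438 and Trave1_149493 are named as sugar and proton symporters, without the sugar. What each protein carries was not tested.

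Uptake of other nutrients held a few large differences. Of 17 genes for metals, phosphate and sulphate 4 were higher, 23.5% against 12.7% of all genes, and 0 lower. All of the higher ones were phosphate transporters or sulfate permeases. The phosphate transporters Trave1_150610 and Trave1_169969 had 22.5 RPKM on glucose and 3.21 on poplar, against 3.15 on PDA, and 83 RPKM on glucose and 21.7 on poplar, against 16 on PDA. The most abundant phosphate transporter, Trave1_150983, had 342 RPKM on glucose against 327 on PDA. Sulfate permeases Trave1_165794 and Trave1_46127, the second chosen after its values were seen, had 26 RPKM on glucose against 7.3 on PDA and 28.5 RPKM on glucose against 11.5 on PDA. All 10 iron permease genes of the list lay within 2-fold. Of 48 genes for nitrogen and peptide uptake 8 were higher and 5 lower, 16.7% and 10.4% against 12.7% and 6.52% of all genes. Their median log2 ratio was 0.06, near that of all genes. Of the higher ones, 6 were among the 16 oligopeptide transporters. Trave1_171171 had 165 RPKM on glucose and 39.4 on poplar, against 29.5 on PDA, or 5.59-fold (4.79 to 6.56), and Trave1_142108 had 81.9 RPKM on glucose and 29.6 on poplar, against 11.4 on PDA, or 7.19-fold (5.59 to 9.38). Trave1_39317 went the other way, with 25.4 RPKM on glucose and 59.1 on poplar, against 77.2 on PDA. Uricase Trave1_156551, which opens the breakdown of urate, had 94.3 RPKM on glucose against 219 on PDA, and the urease accessory gene UreG Trave1_166773 4.53 RPKM on glucose against 19.1 on PDA, both lower.

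Biosynthesis of amino acids and cofactors held few calls by description. Of 48 amino acid genes 4 were higher and 2 lower, 8.33% and 4.17% against 12.7% and 6.52% of all genes. With KEGG names the counts were 7 and 2 of 73. The gene Trave1_24586, whose description begins with O-acetylhomoserine and places it in sulphur amino acid synthesis, had 119 RPKM on glucose and 15.7 on poplar, against 21.5 on PDA, or 5.51-fold (4.33 to 7.08). Dihydroxy-acid dehydratase Trave1_113030, of branched-chain amino acid synthesis, had 448 RPKM on glucose against 171 on PDA, while glutamine synthetase Trave1_116557 had 810.1 RPKM on glucose and 865 on poplar, against 841 on PDA. Aspartate kinase Trave1_152210, the entry to the threonine and methionine branch, had 33.7 RPKM on glucose against 90.1 on PDA and was lower. Of 17 cofactor genes 0 were higher and 1 was lower, and with KEGG names 9 and 2 of 61.

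The genes of protein synthesis and turnover mostly lay slightly below equality. None of 74 cytosolic ribosomal protein genes reached 2-fold, with a median log2 ratio of -0.30 and a range of -0.65 to 0.46. Their summed level was 47854 RPKM on glucose and 49248 on poplar, against 59723 on PDA. None of 54 translation factor and tRNA synthetase genes reached 2-fold, with a median of -0.25, and elongation factor Trave1_111000 had 2949 RPKM on glucose and 3465 on poplar, against 3494 on PDA. None of 19 proteasome genes did so, with a median of -0.50, nor any of 10 genes for DNA replication and histones, with a median of -0.22. These counts are of genes found by description, and 80.8% of all genes lay within 2-fold. With KEGG names 1 of 110 translation genes was higher and 5 were lower, 2 of 104 ribosomal protein genes and 1 of 53 proteasome genes were lower, and 4 of 97 DNA replication and histone genes were higher and 3 lower. The 7 genes described as transcription factors, a short list, lay within 2-fold, with a median of -0.08. But of 66 once KEGG names were added 10 were higher and 5 lower, 15.2% and 7.58%. Of 100 protein kinase genes 8 were higher and 6 lower, against 12.7% and 6.52% of all genes.

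Heat shock proteins and chaperones mostly stood near equality, apart from some of the small heat shock proteins, which hold unfolded proteins in solution. Of 49 genes 4 were higher and 2 lower, 8.16% and 4.08% against 12.7% and 6.52% of all genes. All of the higher ones were among 7 measured small heat shock genes. The rest of these 7 were not above their PDA level, the lowest log2 ratio being -0.64. The summed level of the 7 was 1904 RPKM on glucose and 2316 on poplar, against 1800 on PDA, so the family as a whole differed little. Trave1_167159 had 248 RPKM on glucose and 9.77 on poplar, against 10.8 on PDA, or 23-fold (14.4 to 39.2). Trave1_127684 had 78 reads on glucose, 0 on poplar and 2 on PDA, so that its ratio of 41.5 has an interval of 11.1 to 349. Trave1_174621 had 335 RPKM on glucose and 25.2 on poplar, against 54.7 on PDA, or 6.13-fold (4.92 to 7.7). In all 3 the glucose library stood far above both others. Cyclophilin Trave1_22291, the most abundant gene on the list on poplar and PDA, had 3551 RPKM on glucose and 4218 on poplar, against 3538 on PDA.

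Proteases were near the background, with 24 of 156 higher and 15 lower, 15.4% and 9.62% against 12.7% and 6.52% of all genes. Acid proteases were called in both directions. The lower ones included aspergillopepsin Trave1_40551, with 445 RPKM on glucose and 2163 on poplar, against 1638 on PDA, or 3.68-fold (3.43 to 3.95) lower, and Trave1_64609, with 125 RPKM on glucose and 537 on poplar, against 620.2 on PDA, or 4.95-fold (4.46 to 5.5) lower. The subtilisin-like Trave1_153777 had 198 RPKM on glucose and 193 on poplar, against 22.3 on PDA, or 8.87-fold (7.32 to 10.8) higher, and Trave1_63174 was 9.58-fold higher. Metalloprotease Trave1_164315 had 73.2 RPKM on glucose and 222 on poplar, against 6.88 on PDA, or 10.6-fold (6.79 to 17.6) higher.

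Hydrophobins, small secreted proteins that coat hyphae and make them water-repellent, differed in both directions. Of 34 measured genes of 35, 10 were higher and 11 lower, 29.4% and 32.4% against 12.7% and 6.52% of all genes. With intervals that also left out 1, 6 and 9 were called, against 9.74% and 4.73% of all genes. The low counts bear on these numbers, since 7 of the genes had at most 3 reads in both libraries. The most abundant, Trave1_129761, had 5166 RPKM on glucose and 3881 on poplar, against 16185 on PDA, or 3.13-fold (3.03 to 3.24) lower on glucose. Hydrophobin-315 Trave1_50454 had 145 RPKM on glucose against 715 on PDA, Trave1_130087 276 RPKM on glucose against 1359 on PDA and Trave1_120575 6.73 RPKM on glucose against 72.7 on PDA, with folds of 4.94, 4.92 and 10.8 lower. These genes were highest on PDA. In the other direction Trave1_50452 had 3067 RPKM on glucose and 1022 on poplar, against 655 on PDA, or 4.68-fold (4.29 to 5.11), hydrophobin-251 Trave1_46539 had 173 RPKM on glucose against 35.9 on PDA, and Trave1_106264 had 262 RPKM on glucose against 63.9 on PDA. The second most abundant on glucose and PDA, Trave1_30715, chosen after its values were seen, had 5059.6 RPKM on glucose and 3190.4 on poplar, against 5531 on PDA, which is 1.09-fold lower on glucose. The summed level of the family was 19907 RPKM on glucose and 17534 on poplar, against 32433 on PDA.

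Among 14 genes of the fungus's own cell wall 3 were higher and 2 lower, 21.4% and 14.3% against 12.7% and 6.52% of all genes. The exo-beta-1,3-glucanases, which trim the glucans of the wall, differed among themselves, with 275 RPKM on glucose and 64.7 on poplar, against 23.5 on PDA for Trave1_34953, or 11.7-fold (9.92 to 13.9), 240.1 RPKM on glucose and 115 on poplar, against 85.2 on PDA for Trave1_121249 and 60.9 RPKM on glucose and 99.2 on poplar, against 144 on PDA for Trave1_25672. Chitin synthase 2 Trave1_158352 had 924 RPKM on glucose and 1158 on poplar, against 929 on PDA. Of 3 pheromone genes, Trave1_49829 had 34 reads on glucose and 10 on poplar, against 2 on PDA, a ratio of 18.1 with an interval of 4.64 to 155. Trave1_45033 had 128 RPKM on glucose against 112 on PDA, and Trave1_49815 rested on 4 reads on glucose against 7 on PDA.

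**Figure D5:**
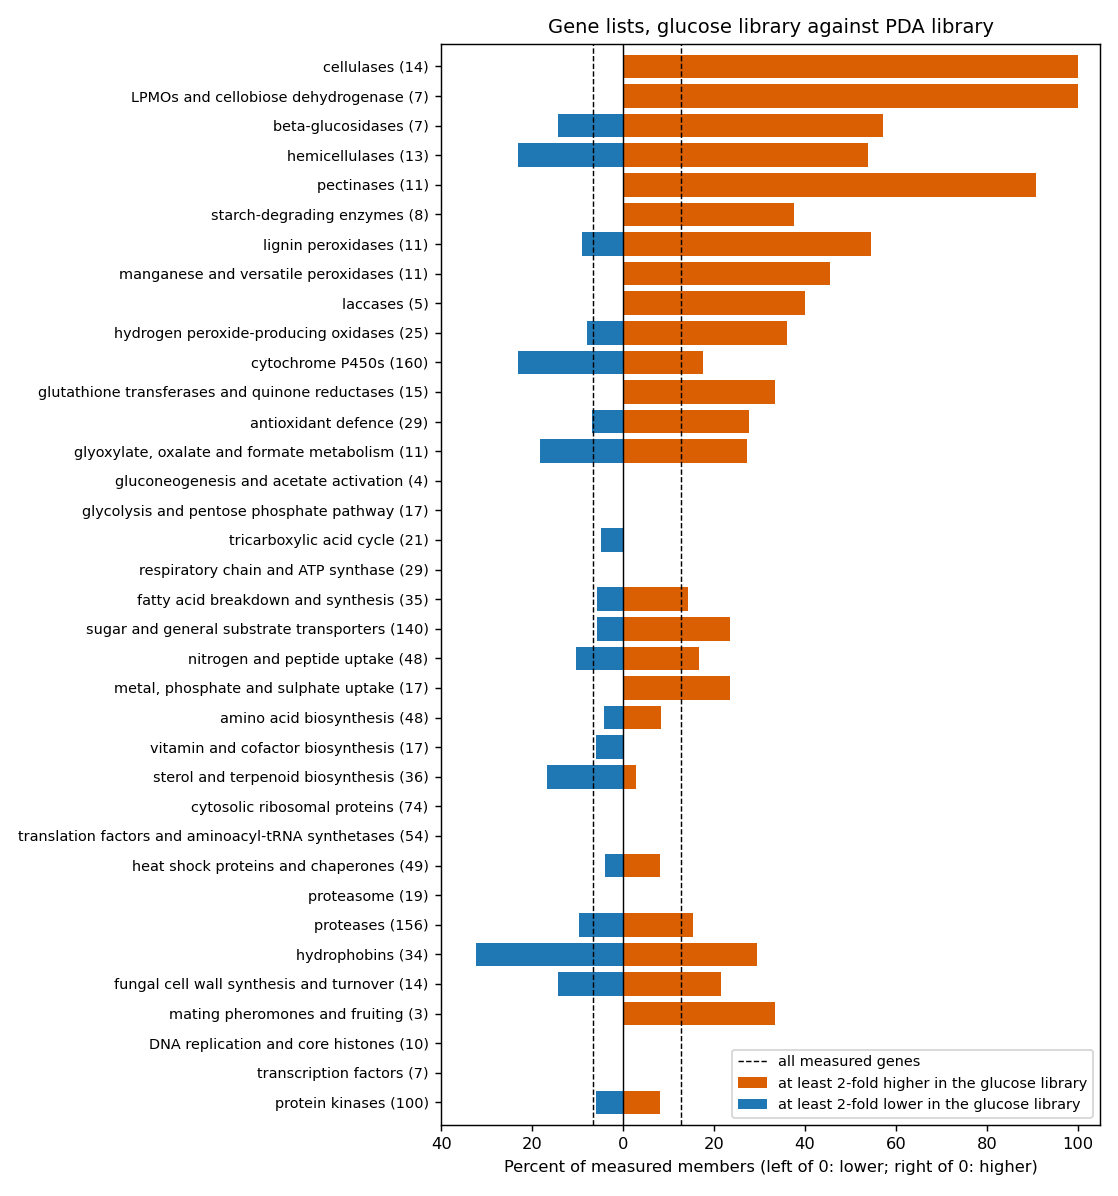
Percent of the measured members of each of 36 gene lists called at least 2-fold higher (orange, right of 0) or lower (blue, left of 0) in the glucose library, with the number of measured members in brackets. The dashed lines mark the shares over all 10487 genes, 12.7% higher and 6.52% lower. Cellulases and LPMOs reach 100% and pectinases 90.9% on the higher side, hydrophobins, cytochrome P450s and hemicellulases extend furthest on the lower side, and ribosomal protein, glycolysis and respiratory chain genes have no bar.

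Several large differences belonged to described genes outside these lists. Myo-inositol-1-phosphate synthase Trave1_154309, which makes inositol phosphate from glucose 6-phosphate, had 36.9 RPKM on glucose and 109 on poplar, against 403 on PDA, or 10.9-fold (9.31 to 12.9) lower on glucose. The purine nucleoside permease Trave1_53246 had 16 RPKM on glucose and 28.1 on poplar, against 227 on PDA, or 14.2-fold (10.7 to 19) lower. A pleiotropic drug resistance ABC transporter, Trave1_74952, of a family of membrane exporters, had 6.38 RPKM on glucose and 16.2 on poplar, against 70.2 on PDA, or 11-fold (8.73 to 14.1) lower. The 2 NAD-P-binding proteins Trave1_50669 and Trave1_42291 had 9.6 RPKM on glucose and 11.2 on poplar, against 153 on PDA, and 0.993 RPKM on glucose and 6.97 on poplar, against 33.6 on PDA. All 5 of these were highest on PDA, and the poplar level lay between the others in each.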

How the data were processed

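RNA of mycelium from 3 cultures was sequenced, 1 library per medium, and the glucose and PDA libraries were compared. Per the labels' protocols, polyadenylated RNA was fragmented and copied with random hexamers. The authors deposited, per library, counts of unique reads per gene model with at least 1 read, RPKM values from those counts, and the percent of each gene model covered. RPKM recomputed from the counts and their total equalled the deposited values. Cufflinks 2.0.1 appears in the submitters' processing notes, with no role stated. No aligner, build or strand setting is given in the sources used here. Close paralogs (cellobiohydrolases, peroxidases, hydrophobins, P450s) can lose reads that are not unique, and overlapping or antisense genes cannot be told apart. Lengths were nearly all multiples of 3 (99.3%), so RPKM is per coding length.

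Genes absent from a table were given 0 reads. Calls needed 1 RPKM in either library and 2-fold after a pseudocount of 1. Plain folds carry exact conditional Clopper-Pearson 95% intervals and shares of reads Wilson intervals, which cover counting error only, as reads carry no molecular identifiers, and 0 reads were replaced by a floor of 3. The 36 lists were text patterns on protein descriptions, and members and lists were chosen with earlier results of these data known. Lists of polymer-degrading enzymes with up to 14 genes are given whole. Otherwise the genes named were chosen among the 10 highest and 10 lowest ratios with 10 RPKM in the higher library, the 15 and 15 among described genes, up to 3 and 3 called genes and the most abundant gene of each list, and the 10 most abundant models of each library. The calculation was tested on simulated counts. Mycelium has no marker list in the files, so the tissue label was not checked. Python 3.11.15, pandas 2.3.3, scipy 1.17.1, R 4.3.3 and edgeR 4.0.16 (TMM factors) were used.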

Additional observations from a re-analysis of the deposited data

How the results depend on the processing

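Log2 ratios and calls were recomputed with pseudocounts of 0.1 and 5, without the limit on low values, at 10 RPKM, at 20 reads in both libraries together, with median-of-ratios factors, TMM factors and totals without the 50 most counted gene models, at 4-fold, with intervals that leave out 1 and with KEGG names added to the lists. No called gene changed direction under these, but these settings could not have reversed a call. A pseudocount keeps the sign of a ratio, and the limits, folds, intervals and KEGG names leave the ratio as it was. No scaling moved the median log2 ratio of all genes by more than 0.1, too little to reverse a 2-fold difference. Without the KEGG names, 11 to 14 cellulases and 6 to 7 LPMO and cellobiose dehydrogenase genes were higher and none lower. A pseudocount of 5 gave 735 higher and 330 lower genes, 1 lower hydrogen peroxide-producing oxidase, 15 higher P450s, 4 lower transporters and 6 higher hydrophobins. At 10 RPKM there were 864 higher and 428 lower genes and 17 higher P450s. At 4-fold there were 334 higher and 142 lower genes, 5 higher pectinases, 3 higher and 1 lower hydrogen peroxide-producing oxidases, 4 higher and 22 lower P450s, 4 higher and 2 lower transporters, and 3 higher and 5 lower hydrophobins. At 20 reads and with intervals there were 6 higher hydrophobins each. With KEGG names the lists held 28 higher and 1 lower of 37 cellulases, 22 higher of 36 hemicellulases and 2 lower of 104 ribosomal proteins. The share of cellulases called higher was then 75.7%, against 100% by description. A gene with several KEGG names can stand in more than 1 of these longer lists. The other 214 counts for all genes and for the lists of these sentences and of pectinases and lignin peroxidases stayed within 1.5 times. Of the values for other lists, list medians and single genes, 226 moved and 1586 did not. The median of the P450s was -0.19 at 10 RPKM, against 0.13, and that of the pectinases 2.51 with a pseudocount of 0.1 and 2.45 at 10 RPKM, against 1.36. Among other lists, KEGG names gave 9 higher and 3 lower of 31 starch genes, 10 higher of 40 cell wall genes, 7 higher and 4 lower of 63 metal, phosphate and sulphate genes, 1 higher of 29 glycolysis genes, 1 higher of 7 gluconeogenesis genes, 2 higher and 2 lower of 42 tricarboxylic acid cycle genes and 2 lower of 71 respiratory genes. These shifts follow from fewer genes, another pseudocount, stricter folds or larger lists. Genes with few reads set the precision, since 523 genes had at most 3 reads in both libraries, and 252 of these were called. No paired analysis was possible because each medium has 1 library, and for the same reason no library could be left out.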

Other observations

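Genes without a described function made up 5981 of the 10487 genes. Of these 13.6% were higher and 6.74% lower on glucose, against 11.5% and 6.24% of the 4506 described genes. Trave1_75553 had 120 reads on glucose and 2 on poplar, against 0 on PDA, which is at least 42.6-fold higher against a floor of 3 reads in the PDA library. Trave1_21184 had 332 reads on glucose against 3 on PDA, a ratio of 118 with an interval of 40 to 574. In the other direction Trave1_141952 had 27.2 RPKM on glucose and 726 on poplar, against 1445 on PDA, or 53-fold (38.3 to 75.5) lower, and Trave1_53761 had 1 read on glucose and 12 on poplar, against 92 on PDA, a ratio of 86.4 lower with an interval of 15.1 to 3450.1. The ratios of these genes were as large as those of the cellulases. At high level Trave1_109473 had 12921 RPKM on glucose and 6099 on poplar, against 6454 on PDA, and Trave1_28784 had 2845 RPKM on glucose and 10726 on poplar, against 15523 on PDA, or 5.46-fold (5.27 to 5.64) lower. The most abundant model in all libraries, Trave1_137702, described as CHK1 checkpoint-like and of short length, had 75825 RPKM on glucose and 44262 on poplar, against 90902 on PDA.

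Calls were more frequent beside a gene called in the same direction. Gene models were matched by locus number to the RefSeq annotation of assembly Trametes versicolor v1.0. They were taken in that annotation's order of genes, which gave 8958 adjacent pairs of measured genes. The build behind the deposited tables is not given in the sources used here, so the order alone was used. Next to a higher gene 20.2% of genes were higher, against 12.4% of all genes in the pairs, and next to a lower gene 11.7% were lower, against 6.21%. The longest run of adjacent higher genes held 6, among them Trave1_24019, an acyl-CoA dehydrogenase-like gene, the delta-12 desaturase Trave1_155123, the P450 Trave1_155127 with 292 RPKM on glucose against 126 on PDA and the FAD-binding protein Trave1_174436 with 73.6 RPKM on glucose against 13.7 on PDA. A run of 5 held the hydrophobins Trave1_30712, Trave1_73784 and Trave1_50452 beside the concanavalin A-like lectin/glucanase Trave1_50448, which had 485 RPKM on glucose and 198 on poplar, against 74.5 on PDA. Another run of 5 undescribed genes was led by Trave1_65334, with 1363 RPKM on glucose and 16.8 on poplar, against 60.5 on PDA, or 22.5-fold (18.2 to 28.2). Pairs with 1 higher and 1 lower gene numbered 130, against 225 with both higher and 65 with both lower. No test was made of these shares, neighbouring models can share reads where they overlap, and the genes in these runs were chosen after their values were seen.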
